A study of Mus musculus with 24 samples.

Results

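Gata3 and the transcription factors that act beside it in the T lineage were followed across T6E cells, a Notch1-dependent line of mouse T-cell leukaemia. The set was chosen by name: Gata3, Tcf7, Lef1, Bcl11b, Tox, Tcf12, Tcf3, Id2, Id3 and Ets1. Of these 10 genes 9 were measured, among 19938 genes in all, each on 1 probe set. Tcf7 was not analysed here, because no probe set of the annotation used carried its name alone.

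RNA was hybridised to 24 expression arrays, 3 for each of 8 groups. The cells carried DNMAML, a dominant negative form of the Notch coactivator Mastermind-like, or R1984A, an intracellular Notch1 that cannot dimerize, or ICN1, intracellular Notch1, or only the empty vector MigR1. Each of these received GSI, which is the gamma-secretase inhibitor compound E at 1 uM, or its solvent DMSO, for 6 hours. Groups are named by construct and treatment: DNMAML-GSI, DNMAML-DMSO, R1984A-GSI, R1984A-DMSO, ICN1-GSI, ICN1-DMSO, MigR1-GSI and MigR1-DMSO. All groups are the same leukaemia line, so the values describe 1 transformed line and not normal thymocytes. The labels do not state whether a group's 3 samples were cultured separately. The p-values therefore reflect the spread between samples that may differ only technically, and the number of arrays limits the precision. In bulk RNA of this kind, fewer cells of a type and less RNA per cell cannot be told apart.

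T-cell progenitors take on their fate when Notch ligands in the thymus release the intracellular part of Notch1, which moves to the nucleus and switches on genes together with the DNA-binding protein RBPJ and Mastermind-like. GSI blocks the release, DNMAML blocks the nuclear complex, and ICN1 and R1984A are already free of the membrane. In normal thymocytes Notch raises Tcf7 and Gata3, a zinc-finger factor that is needed from the early thymic stages and again in CD4 and Th2 cells. Tcf7 and Lef1 are HMG-box factors that can work with beta-catenin, and Bcl11b seals the commitment to the T lineage. Tox is an HMG-box protein needed for the CD4 lineage. Tcf3 (E2A) and Tcf12 (HEB) are E proteins, which drive the early T-cell genes, while Id2 and Id3 bind E proteins and keep them off DNA. Ets1 is a winged-helix factor that acts at many T-cell enhancers and at the T-cell receptor genes.

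All values are the authors' deposited log2 expression values, so a difference of 1 is a doubling. A group value is a mean ± SD over its 3 arrays, and SE is the standard error of a difference. A gene was called when limma's adjusted p over the 19938 genes was under 0.05. The labels were checked on Notch1, which stood at 7.07 ± 0.08 in R1984A-GSI and 7.32 ± 0.07 in ICN1-GSI cells, against 5.66 ± 0.06 in MigR1-GSI cells (SD, n = 3 each). Of a list of 10 Notch targets, 7 fell and 0 rose under DNMAML in DMSO, where 1.94% of all genes were called. Under ICN1 8 rose in GSI (2.35% of all genes called) and 4 in DMSO (0.727%), and 0 fell. Under R1984A 5 rose in GSI (1.36%) and 3 in DMSO (0.978%), and 0 fell. In MigR1 cells 5 fell and 0 rose under GSI (0.166%). DNMAML against MigR1 in GSI called 0 of the 10 (0.191%). Whether the Notch1 probe set reads the transfected part of Notch1 was not examined. No gene of the table checks DNMAML itself. Of 27 measured T-cell genes, 15 had a highest group mean over 6, and Cd3e, the brightest, averaged between 10.30 and 10.57 in the 8 groups. In 5 no group mean exceeded the highest array median of 4.18, Cd8a, Cd8b1, Il7r, Dntt and Cd44. The group means of all 11 myeloid markers also stayed at or below it. The same held for 7 of 10 B cell markers, 2 of 7 erythroid and megakaryocyte markers and 4 of 9 stroma and epithelium markers. It also held for 6 of 9 natural killer and 6 of 9 mast cell markers. No B cell or erythroid and megakaryocyte marker had a group mean over 6, and the B cell marker Vpreb1 reached 5.79. The arrays numbered 3 had the highest medians, 4.05 to 4.18, against 3.91 to 3.95 for those numbered 1 and 3.90 to 4.07 for those numbered 2, and calls lost without them are given so too.

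The RefSeq promoter windows of the members (build GRCm38.p6, the 250 bases before each annotated start) were searched for the core letters bound by RBPJ, TGGGAA, on both strands. Of the 14 windows, which belong to 8 of the 10 genes, 0 held it, against 21.6% of the 32851 windows of all genes. The E box CANNTG, the letters that E proteins bind and Id proteins keep them from, was in 9 of the 14 windows, against 66.2% of all windows. Some genes have several windows, and overlapping Lef1 windows share the same CAAGTG, counted in each. Tox and Ets1 have no window, so neither gene was searched. The windows of Gata3 and Id2 are shown because each gene has a call that held under every alternative setting tried; Ets1 has one too, but no window in the table. Capitals mark the E box. The Gata3 window is chr2:9878601-9878850 on the minus strand and the Id2 window is chr12:25096093-25096342 on the minus strand, each written 5′ to 3′ on the gene's strand.
Gata3: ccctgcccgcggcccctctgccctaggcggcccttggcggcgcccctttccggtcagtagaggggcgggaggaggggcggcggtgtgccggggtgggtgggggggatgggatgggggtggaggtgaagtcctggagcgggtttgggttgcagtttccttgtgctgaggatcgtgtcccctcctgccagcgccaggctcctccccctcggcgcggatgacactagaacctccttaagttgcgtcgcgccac
Id2: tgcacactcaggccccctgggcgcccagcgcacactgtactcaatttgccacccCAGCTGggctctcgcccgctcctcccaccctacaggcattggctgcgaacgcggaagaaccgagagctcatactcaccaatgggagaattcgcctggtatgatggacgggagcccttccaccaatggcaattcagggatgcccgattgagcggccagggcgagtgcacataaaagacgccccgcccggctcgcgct
The single match in the Id2 window, CAGCTG, lies at bases -196 to -191 from the start, and the Gata3 window holds neither set of letters. A match describes letters and not a bound site, and the windows leave out distant enhancers.

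Gata3 was highest in the cells with DNMAML, which blocks the Notch complex, and lowest in those with ICN1, which supplies it. In DMSO it stood at 8.95, 9.09 and 9.11 in the DNMAML cells, against 8.40, 8.46 and 8.435 in MigR1 cells. Every DNMAML array lay above every MigR1 array. The rise was 0.62 (SE 0.11, adjusted p = 0.0019). In GSI the DNMAML cells had 8.88, 9.03 and 9.20, against 8.655, 8.57 and 8.77 in MigR1 cells, again without overlap. That difference of 0.38 (SE 0.11) did not pass the test (adjusted p = 0.27).

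The forms of active Notch1 lay on the other side of the empty vector. With ICN1 in GSI, Gata3 had 7.89, 8.085 and 7.92, against 8.655, 8.57 and 8.77 in MigR1-GSI cells. It fell by 0.70 (SE 0.11, adjusted p = 0.00025), a 1.62-fold lower level. In DMSO the ICN1 arrays read 7.89, 8.04 and 8.05, all below the MigR1-DMSO arrays, with a difference of -0.44 (SE 0.11, adjusted p = 0.06). With the replicate number as a block that adjusted p was 0.029. In 6 fits without 1 array the difference was called in 0, with an adjusted p of 0.13 to 0.32. R1984A in GSI gave 8.375, 8.12 and 8.185, against the same MigR1-GSI arrays, and Gata3 fell by 0.44 (SE 0.11, adjusted p = 0.041). This last call was held in 1 of the 6 fits that left out 1 array, where the adjusted p reached 0.23, and without all arrays numbered 3 it was 0.30. In DMSO R1984A arrays at 8.37, 8.49 and 8.21 overlapped those of MigR1, with a difference of -0.07 and a 95% interval of -0.30 to 0.15.

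The order of the 8 group means for Gata3 thus began with DNMAML-DMSO (9.05 ± 0.09) and DNMAML-GSI (9.04 ± 0.16), whose arrays overlapped. MigR1-GSI (8.66 ± 0.10) and MigR1-DMSO (8.43 ± 0.03) followed, each apart from the group before it. MigR1-DMSO overlapped R1984A-DMSO (8.36 ± 0.14), which overlapped R1984A-GSI (8.23 ± 0.13). ICN1-DMSO (7.99 ± 0.09) and ICN1-GSI (7.97 ± 0.10) came last, overlapped each other and lay below all R1984A arrays. From the first to the last group mean the span was 1.085.

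**Figure D1:**
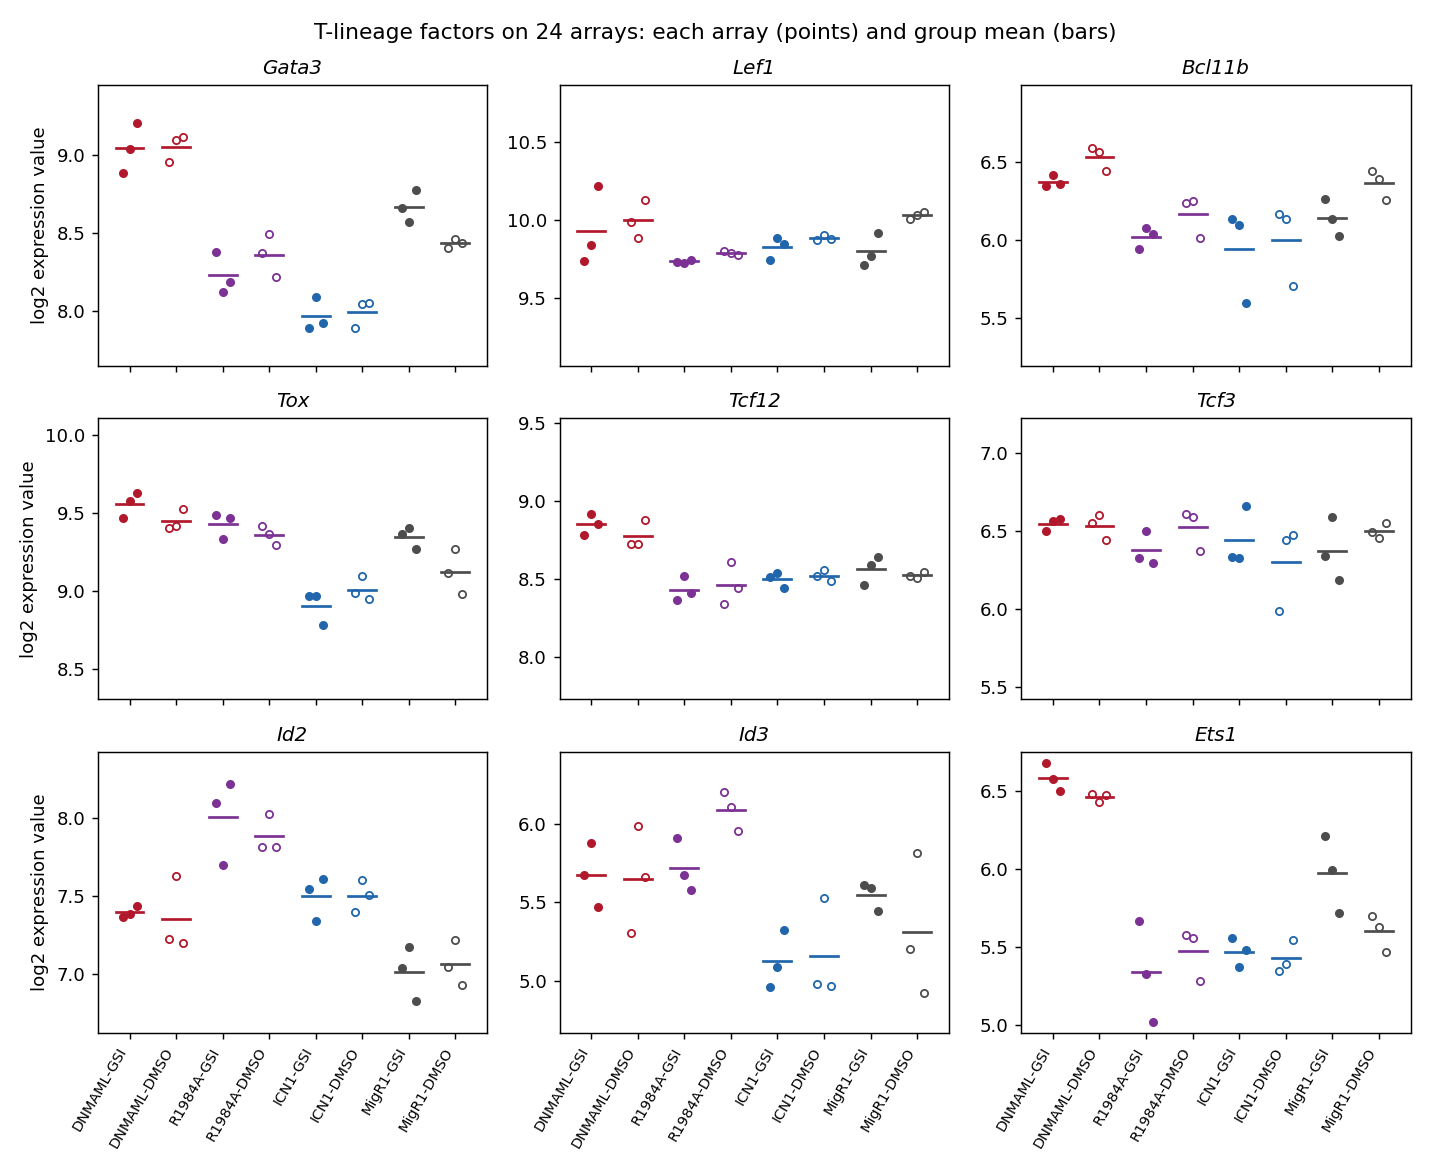
Log2 expression value of each of the 9 measured genes (vertical axes, each covering the same range in log2 units) in the 8 groups (horizontal axis); points are arrays, filled for GSI and open for DMSO, and bars are group means of 3 arrays. Gata3 and Ets1 are highest in the DNMAML groups, Id2 is highest in the R1984A groups, and Lef1, Tcf12 and Tcf3 stay within 0.42 or less between their highest and lowest group means.

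Ets1 shared the rise under DNMAML. In DMSO it stood at 6.48, 6.43 and 6.48 in the DNMAML cells, against 5.70, 5.63 and 5.47 in MigR1 cells. It rose by 0.86 (SE 0.14, adjusted p = 0.00098), a 1.82-fold higher level. In GSI the DNMAML arrays at 6.68, 6.57 and 6.50 again lay above those of MigR1 at 6.21, 6.00 and 5.72. That difference of 0.61 (SE 0.14) had an adjusted p of 0.088, and 0.0097 with the replicate block. It was called in 0 of 6 fits without 1 array, with an adjusted p of 0.07 to 0.29.

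Below the empty vector, Ets1 did not separate the Notch1 forms. In GSI the R1984A cells read 5.67, 5.33 and 5.02, against 6.21, 6.00 and 5.72 in MigR1 cells, so that Ets1 fell by 0.64 (SE 0.14, adjusted p = 0.016). The call was held in 2 of 6 fits without 1 array, with an adjusted p of up to 0.17. ICN1-GSI arrays at 5.56, 5.38 and 5.48 also lay below MigR1-GSI, by 0.505 (SE 0.14, adjusted p = 0.059, or 0.017 without all arrays numbered 3). That difference was called in 1 of 6 fits without 1 array, with an adjusted p of up to 0.27. In DMSO neither form differed from MigR1 by more than 0.17, and the arrays overlapped. The R1984A-GSI and MigR1-GSI arrays had the widest spread for Ets1, with SDs of 0.32 and 0.25, and in both groups the array numbered 3 was the lowest.

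Tox, by contrast, parted R1984A from ICN1. Under ICN1 in GSI it stood at 8.97, 8.97 and 8.78, against 9.36, 9.41 and 9.27 in MigR1-GSI cells, and fell by 0.44 (SE 0.10, adjusted p = 0.012). Leaving out ICN1-GSI replicate 3 brought the adjusted p to 0.075, leaving out MigR1-GSI replicate 2 to 0.06, and leaving out all arrays numbered 3 to 0.082. R1984A-GSI cells had 9.49, 9.34 and 9.47, which overlapped MigR1-GSI and gave a difference of 0.08 with a 95% interval of -0.12 to 0.29. Set directly against ICN1-GSI, Tox in R1984A-GSI was higher by 0.52 (SE 0.10, adjusted p = 0.0055). All 6 fits without 1 array kept that call, and without all arrays numbered 3 the difference was 0.44 with an adjusted p of 0.10. In DMSO the R1984A cells at 9.415, 9.37 and 9.30 lay above the ICN1 cells at 8.985, 9.095 and 8.95, by 0.35 (SE 0.10, adjusted p = 0.11, or 0.049 with the replicate block). The DNMAML-DMSO arrays at 9.40, 9.415 and 9.52 lay above the MigR1-DMSO arrays at 9.115, 9.27 and 8.98. That difference was 0.33 (SE 0.10, adjusted p = 0.11, or 0.046 with the replicate block). Neither of these DMSO differences was called in the 6 fits without 1 array. Their adjusted p ran from 0.14 to 0.43 and from 0.079 to 0.48, respectively.

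Of the inhibitors of E proteins, Id2 rose with R1984A. In GSI it stood at 8.10, 7.70 and 8.22 in R1984A cells, against 7.04, 7.17 and 6.83 in MigR1 cells. The rise was 0.99 (SE 0.14, adjusted p = 0.00012). In DMSO the R1984A cells had 7.82, 8.02 and 7.815, against 7.05, 7.22 and 6.93 in MigR1 cells, a rise of 0.82 (SE 0.14, adjusted p = 0.0016). These calls held under every alternative tried, with differences of 0.88 to 1.14 in GSI and 0.75 to 0.90 in DMSO in the fits without 1 array. With ICN1 the arrays also lay above MigR1, at 7.55, 7.34 and 7.61 in GSI and at 7.40, 7.60 and 7.51 in DMSO. The differences there, 0.48 (SE 0.14, adjusted p = 0.073) in GSI and 0.44 (SE 0.14, adjusted p = 0.27) in DMSO, did not pass the test. DNMAML cells lay between, at 7.40 ± 0.04 in GSI and 7.35 ± 0.24 in DMSO, so that the empty vector had the lowest Id2 of all constructs, at 7.02 ± 0.17 in GSI and 7.06 ± 0.145 in DMSO.

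Id3 was also highest with R1984A, in DMSO. It stood there at 6.21, 6.11 and 5.96, against 4.98, 5.53 and 4.97 in ICN1-DMSO cells, and was higher by 0.94 (SE 0.20, adjusted p = 0.015). The call was held in 2 of 6 fits without 1 array, with an adjusted p of up to 0.12, and without all arrays numbered 3 it was 0.10. Against MigR1-DMSO, at 5.20, 5.815 and 4.92, the difference was 0.78 (SE 0.20, adjusted p = 0.06). Replicate 2 of MigR1-DMSO was the highest of its group, and without it the difference was 1.03 with an adjusted p of 0.0067. This was the only call in 6 fits without 1 array, where the adjusted p reached 0.49. With the replicate block the adjusted p was 0.0094. In GSI the R1984A arrays at 5.91, 5.675 and 5.58 overlapped those of MigR1 at 5.61, 5.59 and 5.44, with a difference of 0.175 and a 95% interval of -0.23 to 0.58. They lay above the ICN1-GSI arrays at 4.96, 5.09 and 5.32, by 0.60 (SE 0.20, adjusted p = 0.22).

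The E proteins Tcf3 and Tcf12, the HMG-box factor Lef1 and Bcl11b were called by limma in none of the 12 comparisons of groups. Of their 48 tests 5 had an unadjusted p under 0.05, a larger share than the 6.38% of all such tests. Tcf3 ranged between group means of 6.30 and 6.55, a span of 0.245. Lef1 ranged between 9.74 and 10.03, a span of 0.295. Tcf12 had its highest means in DNMAML-GSI (8.85 ± 0.07) and DNMAML-DMSO (8.78 ± 0.09), while the other 6 groups averaged 8.43 to 8.57. Each DNMAML group lay wholly above the MigR1 group of the same treatment, by 0.29 (SE 0.09, adjusted p = 0.41) in GSI and 0.25 (SE 0.09, adjusted p = 0.24) in DMSO. Bcl11b averaged 6.53 ± 0.08 in DNMAML-DMSO and 5.94 ± 0.30 in ICN1-GSI, at the ends of its range. Its widest spread was in the ICN1 cells, where replicate 3 read 5.59 in GSI and 5.70 in DMSO, against 6.09 to 6.16 on the other 4 arrays. ICN1-DMSO differed from MigR1-DMSO by -0.36 (SE 0.135, adjusted p = 0.50).

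**Figure D2:**
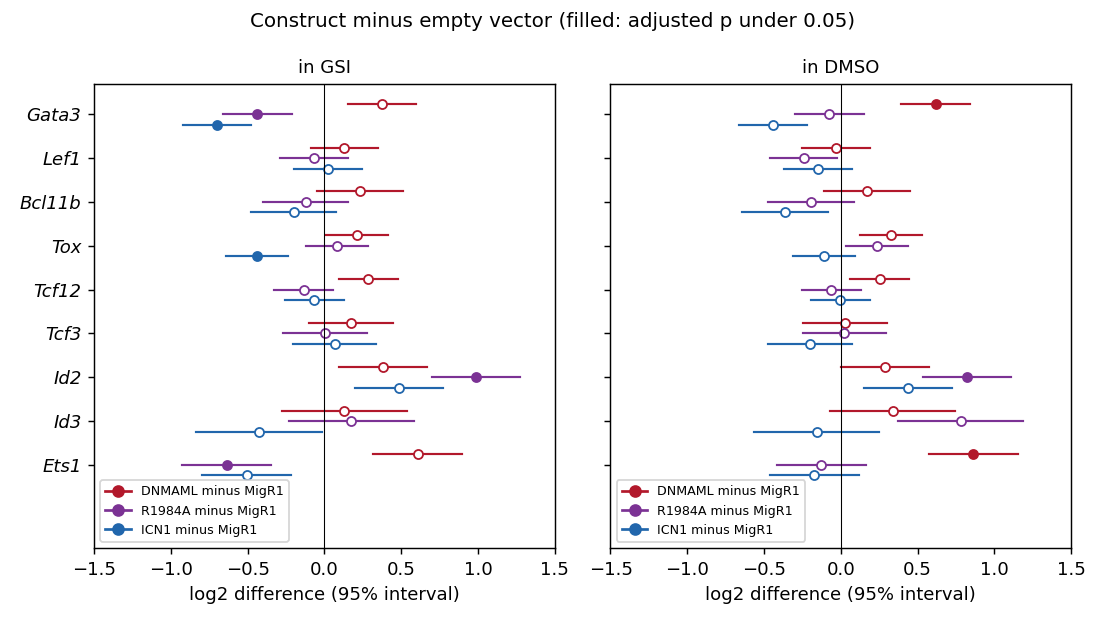
Log2 difference of each construct from the empty vector MigR1 (horizontal axis, with 95% interval) for the 9 genes, in GSI on the left and in DMSO on the right; filled points have an adjusted p under 0.05. Gata3 is 0.62 higher with DNMAML in DMSO and 0.70 lower with ICN1 in GSI, and Id2 is 0.82 to 0.99 higher with R1984A.

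Counted over the 9 genes, DNMAML in DMSO gave 2 rises and 0 falls, where 1.94% of all genes were called. In GSI DNMAML gave 0 calls by limma, where 0.191% of all genes were called, and 5 genes at an unadjusted p under 0.05, which 6.26% of all genes reached. ICN1 gave 0 rises and 2 falls in GSI, where 2.35% of all genes were called. In DMSO it gave 0 calls, where 0.727% of all genes were called, and 3 at an unadjusted p under 0.05, as for 6.09% of all genes. R1984A gave 1 rise and 2 falls in GSI (1.36% of all genes called) and 1 rise and 0 falls in DMSO (0.978% of all genes called). The median difference over the 9 genes was 0.29 under DNMAML in DMSO and 0.23 in GSI, while the median over all genes was within 0.01 of 0 in both. It was -0.20 under ICN1 in GSI and -0.16 in DMSO, and -0.07 and -0.06 under R1984A, beside medians of all genes between -0.01 and 0. Comparisons in the same treatment share their MigR1 arrays, so their values are given side by side only.

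Whether loss of dimerization changed these factors is the question put by R1984A against ICN1. In GSI 1 of the 9 genes rose, Tox, and 0 fell, where 1.1% of all genes were called. In DMSO 1 rose, Id3, and 0 fell, where 0.963% of all genes were called. Since GSI called 0 of the 9 genes in either construct, both treatments were also averaged, 6 arrays against 6, a choice made after the values were seen. In that mean 4 genes were higher in R1984A than in ICN1 cells and 0 lower, where 1.97% of all genes were called higher and 3.06% in either direction.

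In that mean Gata3 averaged 8.29 ± 0.14 with R1984A and 7.98 ± 0.09 with ICN1 (SD, n = 6 each), a difference of 0.31 (SE 0.08, adjusted p = 0.02), which 8 of 12 fits without 1 array kept and the fit of the compared groups alone did not (adjusted p = 0.065). Tox averaged 9.395 ± 0.08 with R1984A and 8.96 ± 0.10 with ICN1, a difference of 0.44 (SE 0.07, adjusted p = 0.00032). Id2 averaged 7.945 ± 0.20 with R1984A and 7.50 ± 0.11 with ICN1, a difference of 0.44 (SE 0.10, adjusted p = 0.009, or 0.062 without all arrays numbered 3). Id3 averaged 5.91 ± 0.24 with R1984A and 5.14 ± 0.23 with ICN1, a difference of 0.77 (SE 0.14, adjusted p = 0.0014). For each of the 4 genes all 6 R1984A arrays lay above all 6 ICN1 arrays, as in one direction or the other for 2.96% of all genes. Ets1, at 5.41 ± 0.24 with R1984A and 5.45 ± 0.09 with ICN1, differed by -0.04 with a 95% interval of -0.25 to 0.16. The Notch1 probe set itself was lower with R1984A than with ICN1 by 0.26 in the same mean (SE 0.09, 95% interval of the difference -0.445 to -0.07, adjusted p = 0.17), and its part in these differences was not tested.

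Against the empty vector the same genes were placed differently. Gata3 lay below MigR1-GSI with both forms of Notch1, by 0.44 with R1984A and 0.70 with ICN1. Tox differed from MigR1-GSI by -0.44 with ICN1, a call, and by 0.08 with R1984A, which was not. Id2 lay above MigR1-GSI with both, by 0.99 with R1984A and 0.48 with ICN1, of which the first was called.

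GSI changed none of the 9 genes beyond the threshold in any construct by limma. In the empty vector, where 0.166% of all genes were called, 4 of the 9 had an unadjusted p under 0.05, which 4.88% of all genes reached. Gata3 had 8.655, 8.57 and 8.77 in MigR1-GSI cells, against 8.40, 8.46 and 8.435 in MigR1-DMSO cells, a difference of 0.23 (SE 0.11, adjusted p = 1). Tox differed by 0.23 (SE 0.10, adjusted p = 0.95) and Ets1 by 0.38 (SE 0.14, adjusted p = 0.78). For these 3 genes every GSI array lay above every DMSO array, while for Lef1, at -0.23 (SE 0.11, adjusted p = 1), every GSI array lay below, a separation seen in 8.5% of all genes. These signs for Gata3, Tox and Ets1 were those of DNMAML against MigR1 in DMSO, a comparison that shares the MigR1-DMSO arrays.

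With DNMAML, R1984A and ICN1 0 of the 9 genes had an unadjusted p under 0.05 for GSI by limma, which 2.54%, 3.18% and 2.37% of all genes reached, while 0.00502%, 0% and 0% were called after adjustment. Gata3 differed between GSI and DMSO by -0.01 with DNMAML (95% interval -0.235 to 0.21), by -0.13 with R1984A (-0.35 to 0.09) and by -0.03 with ICN1 (-0.25 to 0.20). The difference between these responses and that of MigR1 cells was tested directly and called 0 of the 9 genes in each case by limma, where 0.00502% of all genes were called for DNMAML, 0.0251% for R1984A and 0.015% for ICN1. At an unadjusted p under 0.05 it found 0 genes for DNMAML, 3 for R1984A and 1 for ICN1, beside 3.11%, 3.52% and 3.19% of all genes. The 3 for R1984A were Gata3 (-0.36, SE 0.15), Id3 (-0.605, SE 0.28) and Ets1 (-0.51, SE 0.20), and the 1 for ICN1 was Tox (-0.33, SE 0.14), all with an adjusted p of 1. The responses of R1984A and ICN1 cells to GSI differed for 0 of the 9 genes at either threshold, where 0% of all genes were called and 2.31% had an unadjusted p under 0.05.

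**Figure D3:**
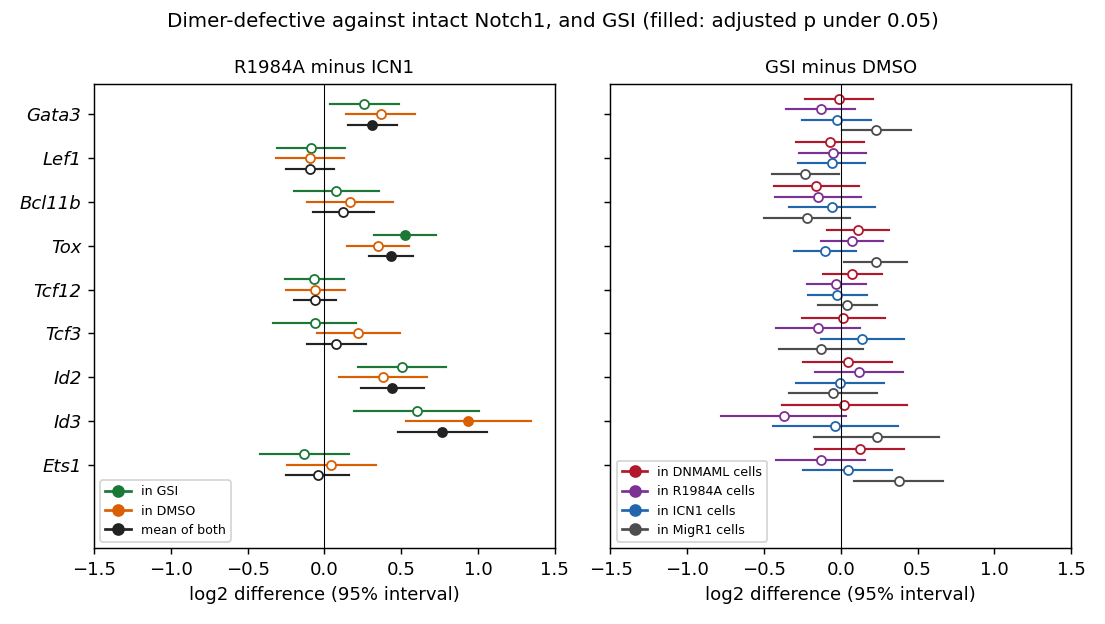
Log2 differences with 95% intervals for the 9 genes: R1984A minus ICN1 on the left, in GSI, in DMSO and as the mean of both, and GSI minus DMSO in each construct on the right; filled points have an adjusted p under 0.05. In the mean of both treatments Gata3, Tox, Id2 and Id3 are higher with R1984A by 0.31 to 0.77, and no GSI point is filled.

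Among 15 measured paralogues of the members, Tox2 and Tcf4 were the only ones called in these comparisons. The shares of all genes called in each comparison are those given above. Tox2, the nearest relative of Tox on the list, averaged 7.865 in DNMAML-DMSO and 7.08 in MigR1-DMSO cells and rose by 0.78 (SE 0.17, adjusted p = 0.013). Under ICN1 it fell by 1.04 in GSI (SE 0.17, adjusted p = 0.00044) and by 0.81 in DMSO (SE 0.17, adjusted p = 0.018). It was higher with R1984A than with ICN1 in DMSO, by 0.81 (SE 0.17, adjusted p = 0.015). Tcf4, an E protein like Tcf3 and Tcf12, rose under ICN1 by 0.56 in GSI (SE 0.10, adjusted p = 0.00094) and 0.55 in DMSO (SE 0.10, adjusted p = 0.0035), and under R1984A by 0.42 in GSI (SE 0.10, adjusted p = 0.021).

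Of 30 other measured regulators of the T lineage, 3 rose and 1 fell under DNMAML in DMSO, where 1.94% of all genes were called. Runx3, a silencer of Cd4 in CD8 cells, rose by 0.77 (SE 0.12, adjusted p = 0.0008), the ETS-family factor Fli1 by 0.58 (SE 0.12, adjusted p = 0.0098) and Ikzf1, the lymphoid factor Ikaros, by 0.55 (SE 0.11, adjusted p = 0.0054). Runx1, the partner of Ets1 at T-cell receptor enhancers, fell by 0.47 (SE 0.11, adjusted p = 0.021) and also fell under GSI in the empty vector, by 0.69 (SE 0.11, adjusted p = 0.0032). Under ICN1 in GSI 3 rose and 3 fell, where 2.35% of all genes were called. Ikzf2 (Helios) fell by 1.10 (SE 0.15, adjusted p = 6.6e-05) and Ikzf1 by 0.72 (SE 0.11, adjusted p = 0.00017). Runx1 rose by 0.82 (SE 0.11, adjusted p = 3.9e-05) and Egr1, an early response factor, by 0.80 (SE 0.21, adjusted p = 0.045). Under R1984A in GSI Runx1 was the 1 gene that rose, by 1.13 (SE 0.11, adjusted p = 7.3e-07), and 0 fell, where 1.36% of all genes were called.

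In R1984A-GSI against ICN1-GSI 4 of the 30 regulators rose and 0 fell, where 1.1% of all genes were called. They were Ikzf2, higher by 1.04 (SE 0.15, adjusted p = 0.00044), Runx3 by 0.54 (SE 0.12, adjusted p = 0.025), Ikzf1 by 0.48 (SE 0.11, adjusted p = 0.024) and Myb by 0.40 (SE 0.10, adjusted p = 0.047). The median difference of the 30 was 0.146, beside 0.001 over all genes. Of 27 measured T-cell genes 1 rose and 3 fell in the same comparison. Rag1 and Rag2, which cut the antigen receptor genes, fell by 3.27 (SE 0.31, adjusted p = 1.1e-06) and 2.59 (SE 0.205, adjusted p = 5.3e-08). Ptcra, a part of the immature T-cell receptor, fell by 0.85 (SE 0.17, adjusted p = 0.0082). Themis, which tunes T-cell receptor signals, rose by 0.55 (SE 0.14, adjusted p = 0.049). Rag2 averaged 2.53 in R1984A-GSI cells, below every array median, where a fall may be compressed.

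Readouts of beta-catenin with Tcf7 and Lef1 were followed because Lef1 itself did not pass the test. Of 10 measured, 2 rose and 0 fell under ICN1 in both treatments: Axin2 by 0.58 in GSI (SE 0.14, adjusted p = 0.021) and 0.65 in DMSO (SE 0.14, adjusted p = 0.023), and Nkd1 by 0.58 (SE 0.15, adjusted p = 0.032) and 0.64 (SE 0.15, adjusted p = 0.036). Both are feedback inhibitors of Wnt signalling. Under ICN1 2.35% of all genes were called in GSI and 0.727% in DMSO. With R1984A Axin2 was lower than with ICN1, by 0.68 in GSI (SE 0.14, adjusted p = 0.011) and by 0.66 in DMSO (SE 0.14, adjusted p = 0.015). Nkd1 also rose with R1984A in DMSO, by 0.88 (SE 0.15, adjusted p = 0.0014). Axin2 and Nkd1 were the only genes of the list called in a comparison of groups. In 6 of the 10 no group mean exceeded the highest array median of 4.18, where a fall may be compressed.

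Some genes that also mark other cells rose under DNMAML in DMSO, as Gata3 did, where 1.94% of all genes were called. Cpa3, a mast cell protease also seen in progenitors, averaged 9.27 in DNMAML-DMSO and 6.99 in MigR1-DMSO cells, and 5.23 in ICN1-GSI and 7.56 in MigR1-GSI cells. Kit, a receptor of mast cells and early progenitors, rose by 1.05 under DNMAML in DMSO (SE 0.12, adjusted p = 2e-05) and fell by 0.93 under ICN1 in GSI (SE 0.12, adjusted p = 2.4e-05). The defining mast cell genes Ms4a2, Fcer1a and Mcpt4 had group means of at most 2.89, and the median of the 9 mast cell markers was 3.76 to 3.96 in every group. Of 9 natural killer markers Il2rb rose by 0.92 (SE 0.16, adjusted p = 0.0018) and Gzma by 0.43 (SE 0.11, adjusted p = 0.039) under DNMAML in DMSO. Under ICN1 in GSI, where Gata3 fell, 0 of the 9 were called. Gzma had group means of 9.58 to 10.13, and Rora reached 5.59. Ncr1, Klrb1c and Eomes had group means of at most 3.35. Pecam1, from a list of 9 stroma and epithelium markers, rose by 1.04 under DNMAML in DMSO (SE 0.18, adjusted p = 0.0019). It fell by 1.16 under ICN1 in GSI (SE 0.18, adjusted p = 0.00028). From the same list Epcam reached at most 3.07 and Cdh5 3.42, while Col1a1 reached 5.20, Col1a2 4.86, Krt8 4.43 and Col3a1 4.255.

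Genes with a pattern like that of Gata3 were sought among the 377 genes whose 8 group means spanned at least 1 log2 unit and reached at least 6. The 5 with the highest Pearson r over the 8 group means were Pdlim5 (0.998), 1700048O20Rik (0.998), Il9r (0.998), Cnn3 (0.997) and Ptgir (0.996). Il9r, the receptor of interleukin 9, averaged 6.75 in DNMAML-GSI, 5.70 in ICN1-GSI and 6.34 in MigR1-GSI cells. The span of 1700048O20Rik was wider, with 9.01 in DNMAML-GSI, 5.91 in ICN1-GSI and 7.83 in MigR1-GSI cells. The 5 with the lowest r were Ifrd1 (-0.972), Agfg1 (-0.969), Serpinb8 (-0.968), Nampt (-0.968) and Rbms1 (-0.967). Such values are common in this table: 158 of the 377 genes, or 41.9%, had an r of at least 0.9, and 72 had one of at most -0.9, since the 8 means share the same constructs and arrays.

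**Figure D4:**
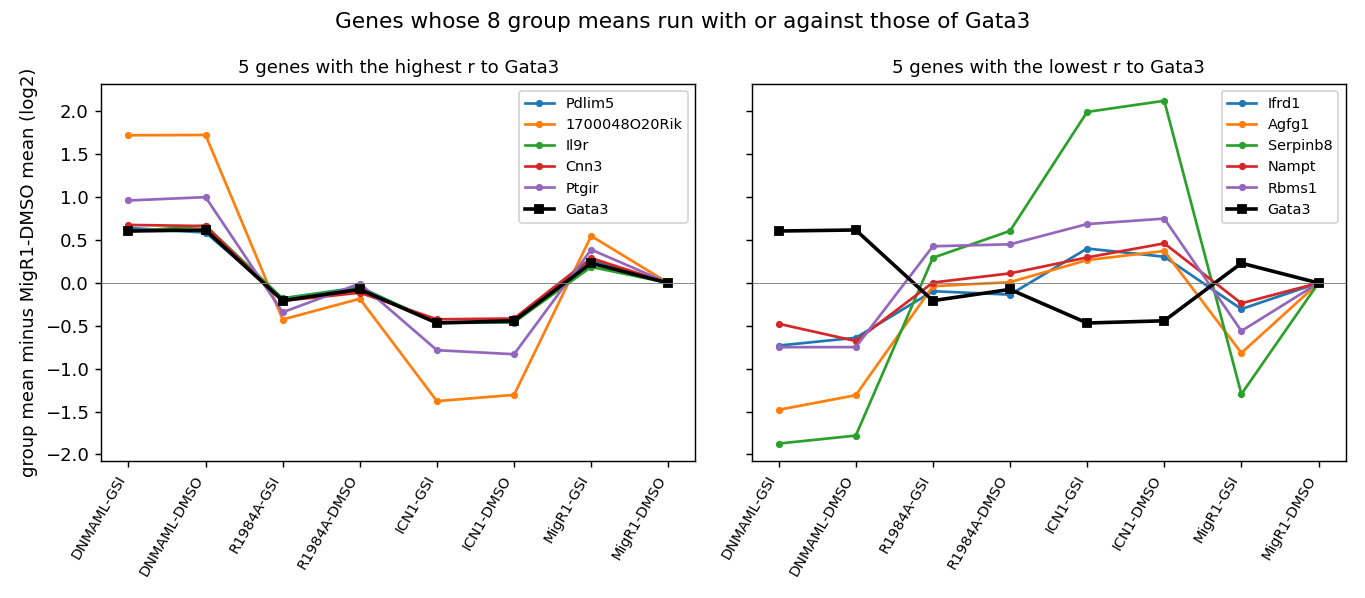
Group mean minus the MigR1-DMSO mean (vertical axis, log2) in the 8 groups for Gata3 (black squares) and, on the left, the 5 genes with the highest r to it and, on the right, the 5 with the lowest. The genes on the left are high with DNMAML and low with ICN1, with 1700048O20Rik and Ptgir moving more than Gata3, and those on the right run the other way.

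Among the members the group means of Gata3 ran most closely with those of Ets1 (r = 0.937 over 8 means), then Bcl11b (0.878), Tcf12 (0.859) and Tox (0.795), and not with those of Id2 (-0.378). Ets1 and Tcf12 had an r of 0.971 and Tox and Id3 one of 0.802. Within groups, where the 24 deviations from the group means carry array quality and culture together, Gata3 and Ets1 had an r of only 0.104, while Gata3 and Lef1 had 0.589 and Id2 and Id3 had 0.511.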

How the data were processed

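The 24 arrays are Affymetrix mouse gene arrays per the platform annotation. The authors deposited log2 values for 35556 probe sets, made with oligo and limma per the submitters' processing notes; their background correction and normalization are not given in the sources used here. Of the probe sets, 21789 carried 1 gene symbol (21698 found in RefSeq's table of GRCm38.p6), 1621 carried several and 12146 none. Where several probe sets shared a symbol the brightest on average was kept, which left 19938 genes, with no filter on dim ones.

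The test was that of limma 3.58.1 (R 4.3.3; lmFit with 1 mean per group over all 24 arrays, eBayes, 16 residual and 6.56 prior degrees of freedom), two-sided, with Benjamini-Hochberg adjustment over the 19938 genes and a threshold of 0.05. The procedure was tested on simulated data.

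The members and lists were chosen with earlier results of these data known. Every member is reported; of each other list the counts called and up to 4 called genes with the largest difference are given, and of genes like Gata3 the 5 highest and 5 lowest r. Samples with the same number deviated together, with every correlation above 0.1, in 7 comparisons: DNMAML against MigR1 in GSI and in DMSO, GSI in MigR1 and in DNMAML cells, and, in DMSO, ICN1 and R1984A against MigR1 and R1984A against ICN1. For these the fit with the number as a block stands beside a result where it changes the call. The labels do not say what samples with the same number share. Alternatives were another quantile normalization, centring, array weights, a filter on dim genes, all probe sets, the block, only the groups compared, and leaving out arrays.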

Additional observations from a re-analysis of the deposited data

How the results depend on the processing

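Over 2412 recomputed differences of single genes 0 calls reversed, 2349 kept their side of the threshold, 37 lost the call and 26 gained it, and 231 of 268 recomputed counts stayed within 1.5 times. Most of the 2412 belong to differences not called in the main fit. Only a called difference could lose its call, so the 37 are no share of the 2412. The calls of Gata3 and Ets1 under DNMAML in DMSO, of Gata3 under ICN1 in GSI and of Id2 under R1984A in both treatments held under every alternative. So did those of Tox and Id3 for R1984A against ICN1 over both treatments. Counts of the 9 genes called moved as follows. For DNMAML in DMSO Tox was called as well with the replicate block or without dim genes. For DNMAML in GSI 0 became 1 (Ets1) after quantile normalization, with the replicate block or with array weights. For ICN1 in DMSO 0 became 1 (Gata3) after quantile normalization, with the replicate block, without dim genes or with array weights. For ICN1 in GSI 2 became 1 (Gata3) with centred arrays or only the groups compared, 4 (with Ets1 and Id2) with the replicate block or without dim genes, 3 (with Ets1) after quantile normalization or with array weights, and 1 to 3 without 1 replicate. For R1984A against MigR1 the count in DMSO went to 2 (with Id3) with the replicate block or without dim genes and was 1 to 2 without 1 replicate, and in GSI 3 became 1 (Id2) with centred arrays or only the groups compared, 2 after quantile normalization (Gata3 lost, adjusted p = 0.061) and 1 to 3 without 1 replicate. For R1984A against ICN1 in DMSO 1 became 2 (with Tox) after quantile normalization or with the replicate block, 0 with centred arrays, 3 (with Gata3) with array weights, and 0 to 1 without 1 replicate. In GSI 1 became 0 with centred arrays or only the groups compared, 2 (with Id2) with the replicate block, 1 to 2 without 1 array, and 0 without all arrays numbered 3. Over both treatments 4 became 2 (Id3 and Tox) with centred arrays, 3 with only the groups compared (Gata3 lost, adjusted p = 0.065) and was 3 to 4 without 1 replicate. Only the groups compared means fewer arrays in the fit; the cause of the other moves was not tested. The replicate block changed no other call than those given here and in the results. In the remaining comparisons samples numbered 1 had correlations of 0.27 to 0.49 and those numbered 3 of 0.35 to 0.57. Those numbered 2 had -0.06 (R1984A against MigR1 in GSI) to 0.08. Same-numbered samples thus did not all deviate together there, and whether the numbers pair them is not settled. Over all genes the block raised the calls, such as to 934 under DNMAML in DMSO, against 386 without it, and to 960 under ICN1 in GSI, against 469, while centring lowered them to 178 and 291. Each measured member has 1 probe set, so averaging several could give no other value. The choice to leave out all arrays numbered 3 was made after seeing the data.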

Other observations

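Among the 30 other regulators, averaged over both treatments, 7 were higher with R1984A than with ICN1 and 1 was lower. Of all genes, 1.97% were called higher in that mean and 3.06% in either direction. Ikzf2 averaged 8.91 with R1984A and 7.96 with ICN1 (difference 0.95, SE 0.11, adjusted p = 4.5e-06), Runx3 differed by 0.525 (SE 0.09, adjusted p = 0.00046) and Ikzf1 by 0.50 (SE 0.08, adjusted p = 0.00021). The gene that ran the other way was Nfil3, a factor of innate lymphoid and natural killer development, which averaged 5.16 with R1984A and 5.78 with ICN1 and was lower by 0.62 (SE 0.12, adjusted p = 0.0022). The mean over both treatments was chosen after the values were seen.

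Of 27 T-cell genes, 3 rose and 2 fell in R1984A-GSI against MigR1-GSI cells, where 1.36% of all genes were called. The largest difference was a fall of Ccr9, a chemokine receptor of thymocytes, which averaged 7.945 in R1984A-GSI and 9.78 in MigR1-GSI cells (difference -1.83, SE 0.27, adjusted p = 0.00024). Cd7, an early T-lineage surface protein, averaged 6.485 in R1984A-GSI and 4.94 in MigR1-GSI cells (difference 1.55, SE 0.31, adjusted p = 0.0064). Il2ra, the alpha chain of the interleukin 2 receptor and also on the list of Notch targets, rose by 1.49 (SE 0.14, adjusted p = 7.3e-07) and Cd28, a costimulatory receptor, by 1.10 (SE 0.19, adjusted p = 0.0016). In DMSO 3 rose and 1 fell under R1984A, where 0.978% of all genes were called. Cd7 rose by 2.22 (SE 0.31, adjusted p = 0.00023), Cd28 by 1.19 (SE 0.19, adjusted p = 0.001) and Il2ra by 0.66 (SE 0.14, adjusted p = 0.017). Ccr9 fell by 1.19 (SE 0.27, adjusted p = 0.031).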
